A study of Arabidopsis thaliana with 30 samples.

Results

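The genes of the mitochondrial genome were followed across RNA sequencing libraries of whole Arabidopsis thaliana seedlings. Members were all genes whose ID starts with ATMG in any of the 9 deposited tables, which gave 90 of the 24721 genes. By published locus names, 3 of them are rRNA genes, 33 are protein genes of known function and 54 are open reading frames. Of the 90 members, 64 stood in all 9 tables and 74 in all 5 tables on antimycin A (AA). Of the 41 rRNA and protein genes listed by role, 5 were not in the tables and were not analysed here.

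Seedlings were 10 days old and of 5 genotypes, all in the Col-0 accession. Besides the wild type (Col) there were 3 lines that overexpress 1 gene of the mitochondrial calcium uniporter (MCU) each, and a sextuple knockdown of the 6 MCU genes. Lines 2OX, 4OX and 6OX overexpress MCU2, MCU4 and MCU6. By the study's text the uniporter genes were placed under the constitutive 35S promoter as fusions with a fluorescent protein, and the sextuple line was crossed from insertion and CRISPR single mutants. Per the labels, the AA samples were given 50 µM AA, which blocks electron transport at complex III, for 5 h. By the study's methods, AA or the solvent DMSO (CK) was given in liquid medium, and these methods give another time. Each of the 10 groups of genotype and treatment held 3 libraries. The study calls its replicates biological, and the sources used here do not say whether they were separate cultures, so p-values measure the spread between these libraries only.

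The plant mitochondrial genome is small in gene number. It carries rRNAs, some ribosomal proteins, an intron maturase, factors that attach heme to cytochrome c, and core subunits of the respiratory chain and the ATP synthase. The other subunits of these complexes, the polymerases that transcribe the genome and most RNA processing factors are encoded in the nucleus. Mature mitochondrial transcripts of plants mostly lack stable poly(A) tails, so the part of them that a library holds depends on how RNA was selected. The selection step is not given in the sources used here.

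The headings of the tables conflicted, which bears on every direction given here. There were 4 line tables (a line against Col, all headed CK) and 5 AA tables (AA against CK within a genotype). Each of the 15 libraries under the heading AA had the same reads in every gene as 1 of the 15 libraries of the line tables, where the heading was CK. The 9 tables therefore held 30 distinct libraries, 15 in both kinds of table and 15 in the AA tables only, where they were headed CK. Line comparisons below use the headings of the line tables and AA comparisons those of the AA tables, and no library was relabelled. Each library is named by its heading in the AA table where a paragraph does not say otherwise. The alternative oxidase gene AOX1A, known to rise with AA, was lower in the libraries headed AA in all 5 AA tables, by log2 differences of -0.97 in Col to -1.83 in 2OX, and AOX1D was lower by -1.96 in Col to -4.16 in 2OX, each called by limma.

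The targeted genes followed their labels in the overexpression lines. Against Col, the log2 difference was 4.13 for MCU2 in 2OX, 10.36 for MCU4 in 4OX and 1.68 for MCU6 in 6OX, and each was called by limma. In the sextuple libraries MCU6 fell by 1.63 and was called, MCU4 had a log2 difference of -1.91 and MCU2 of 0.13, neither called by limma. Depth ran from 2558914 to 39065770 reads. The shallowest library was a 2OX library, headed AA replicate 1, and the next lowest held 11842565 reads. Leaf marker genes together gave 888 to 4605 RPM (RPM of nuclear reads, a base that leaves out rRNA and both organelle genomes) in the 30 libraries and root marker genes 13.0 to 95.2, and no list summed to 0 in any library.

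Mitochondrial genes took a small and very uneven part of the reads. Their share of a library was between 0.0101% and 1.09%, with a median of 0.0613%, a 108-fold range over 30 libraries. Col held both ends of the groups. In Col headed CK the shares were 0.774%, 0.301% and 1.09%. In Col headed AA they were 0.0169%, 0.0137% and 0.0121%, so all 3 lay below the lowest of the other group.

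The sextuple line showed the same order on a smaller scale, with 0.0535%, 0.0658% and 0.0651% headed CK and 0.0101%, 0.0135% and 0.0278% headed AA. In 4OX the shares were 0.0330%, 0.0293% and 0.0312% headed CK and 0.0600%, 0.0249% and 0.0176% headed AA. These 2 groups of 4OX overlapped.

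Shares within a group were widely spread in 2OX and 6OX. In 2OX they were 0.495%, 0.0381% and 0.0625% headed CK and 0.200%, 0.420% and 0.0756% headed AA. In 6OX they were 0.317%, 0.0584% and 0.498% headed CK and 0.0760%, 0.0626% and 0.297% headed AA. In both lines the groups overlapped.

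As a ratio of mean shares, headed AA over headed CK, the values were 0.0197 in Col, 0.278 in the sextuple line, 0.499 in 6OX, 1.10 in 4OX and 1.17 in 2OX. The last 2 turn to 0.694 and 0.940 when rRNA reads are left out of the share. In 2OX the ratio was 4.61 without the library headed CK replicate 1 and 0.694 without that headed AA replicate 2. In 4OX it was 0.682 without the library headed AA replicate 1. In 6OX it was 0.238 without the library headed AA replicate 3 and 0.773 without that headed CK replicate 3. Over the line tables, the mean share of the line was 16.3 times that of Col in 2OX, 10.2 times in 6OX, 2.40 times in 4OX and 1.20 times in the sextuple line. The line and Col did not overlap in 2OX, 6OX and 4OX and overlapped in the sextuple line. By the headings of the line tables, the ratio was 9.67 in 2OX without 2OX replicate 2, 4.87 in 6OX without 6OX replicate 3, 1.49 in 4OX without 4OX replicate 1 and 0.828 in the sextuple line without its replicate 3. Shares are sums over members chosen with earlier results known and are given without a test.

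Reads on the nuclear rRNA genes moved with the mitochondrial share. These 5 genes of the nuclear rRNA repeats took 0.0372% to 6.64% of a library. On the log2 scale, Pearson's r between the 2 shares was 0.992 and Spearman's rho 0.963 over the 30 libraries, with r of 0.987 over the 15 headed AA and 0.994 over the 15 headed CK. Both shares have the same denominator, so these values are a description. The plastid genome, with 117 genes in the tables, followed as well (r = 0.976), between 0.0207% and 1.37% of reads. In Col the nuclear rRNA share headed AA was 0.0154 times that headed CK and the plastid share 0.0350 times. In the line tables the nuclear rRNA share of 2OX was 18.8 times that of Col, that of 6OX 10.50 times and that of 4OX 1.95 times. The comparisons of the 9 tables and the interactions were therefore also fitted with the nuclear rRNA share as a covariate. In Col and in the sextuple line the heading and the rRNA share cannot be told apart, nor can the line and that share in 2OX and 6OX against Col in the line tables. The covariate also lies close to the mitochondrial share itself, so calls lost with it are a description and do not account for the differences. In whole seedlings, fewer cells of a type and less RNA per cell cannot be told apart either.

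**Figure D1:**
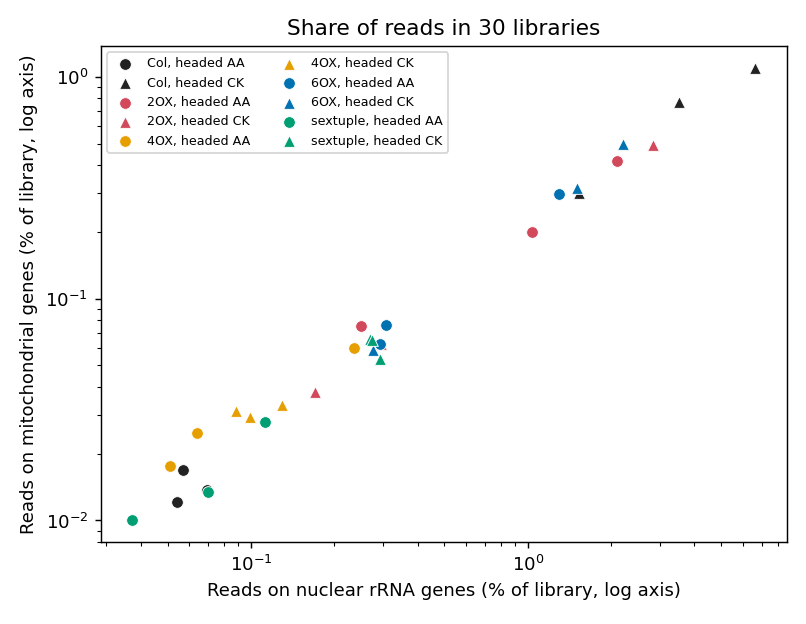
Reads on the 90 mitochondrial genes, as a percentage of the library, are plotted against reads on the 5 nuclear rRNA genes, both on log axes, with 1 point per library, colours for genotypes and symbols for the headings of the AA tables. The points form 1 band over a 108-fold range of the mitochondrial share, with the 3 Col libraries headed CK at the upper right, between 0.301% and 1.09%, and the 3 headed AA near the lower left, between 0.0121% and 0.0169%.

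rRNA made up most of the mitochondrial reads. Of 1045029 member reads in 30 libraries, 85.6% lay on the 3 rRNA genes, 11.1% on open reading frames and 3.31% on protein genes. The rRNA genes held 64.9% to 89.7% of the mitochondrial reads of a library, and the protein genes 1.63% to 12.3%. In the 4OX libraries headed CK the protein genes reached 10.87%, 11.07% and 10.98%. In Col headed CK, where mitochondrial reads were most abundant, they made up 1.63%, 2.48% and 1.69%. In Col headed AA they made up 7.59%, 7.57% and 8.39%, so in Col the class made up more of the mitochondrial reads where those reads were scarce. In 6OX the order was the other way. There the protein genes made up 2.93%, 5.73% and 2.35% headed CK. Headed AA, where the mean mitochondrial share was lower, they made up 2.27%, 2.11% and 1.70%.

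The rRNA genes were unequal among themselves. ATMG00020 had 1055 to 95169 reads per library (median 10431) and ATMG01390 had 722 to 35421 (median 4069). ATMG01380 had only 1 to 67 reads per library, with a median of 28. The ratio of ATMG01390 to ATMG00020 reads ran from 0.262 to 1.47. Among open reading frames, ATMG00030 alone held 44.5% to 93.1% of the reads of its class. Its reads were 11.9% to 46.3% of those on ATMG00020 in the same library.

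Protein genes had 118 to 3564 reads per library, so single genes rest on few reads. In RPM of nuclear reads, the 33 protein genes together ran from 9.66 to 203. In Col this level was 137.5 ± 63.4 (SD, n = 3) headed CK and 11.1 ± 1.46 headed AA. In the sextuple line it was 40.8 ± 6.58 and 11.2 ± 1.81, and in 4OX 34.3 ± 1.73 and 17.9 ± 4.11. In these 3 genotypes every library headed AA lay below every library headed CK. In 6OX it was 83.2 ± 44.9 headed CK and 27.3 ± 21.0 headed AA, and in 2OX 83.1 ± 58.3 and 58.3 ± 23.3. The groups of 6OX and 2OX overlapped. This level had Pearson's r of 0.898 on the log2 scale with the nuclear rRNA share over 30 libraries, lower than the 0.992 of the whole mitochondrial share.

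**Figure D2:**
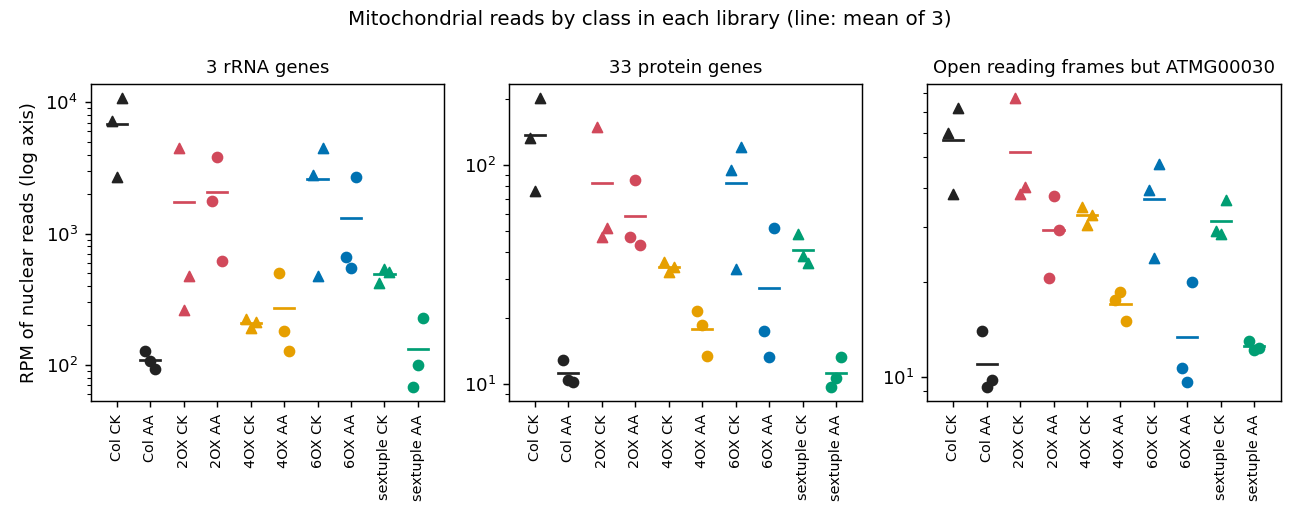
RPM of nuclear reads are shown on log axes for the mitochondrial rRNA genes, the protein genes and the open reading frames, with 1 point per library, 10 groups by the headings of the AA tables and a line at each mean of 3. The rRNA panel spans 67.9 to 10773, the protein gene panel 9.66 to 203, and in both the Col libraries headed CK lie highest among the group means.

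To ask whether altered MCU expression goes with other levels of mitochondrial transcripts, each line was set against Col. A call needed a limma adjusted p below 0.05 together with a fold above 1.5, on log2 of the normalized count plus 1, over all genes of a table. Normalized counts are reads divided by the size factor of the library in that table. The 4 line tables share their 3 Col libraries, so their results are not independent.

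In 2OX, the members called higher than in Col included 2 of 3 rRNA genes, 5 of 12 NADH dehydrogenase genes (complex I), 3 of 5 ribosomal protein genes and the maturase gene. Of 68 members tested, 13 were called, all higher, against 6.7% of all 22705 genes tested called and 3.26% called higher. The members had a median log2 difference of 1.60, and all genes -0.04. By class, 9 of 31 protein genes and 2 of 34 open reading frames were called. Of the 68 tested, 20 had a mean below 1 in 1 of the groups and passed the filter on low values only through the other, 1 of them (ATMG01320) called. Of 104 plastid genes tested beside them, 32 were called higher.

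The rRNA gene ATMG00020 stood at 27865, 53045 and 7127 normalized counts in 2OX and at 1410, 1204 and 950 in Col. Its log2 difference was 4.22 (SE 0.58, limma adjusted p = 0.0044). ATMG01390 was at 7499, 20461 and 4430 against 1144, 909 and 873 (3.18, limma adjusted p = 0.00452). For both genes all 2OX libraries lay above all Col libraries, and the 2OX libraries differed widely among themselves. ATMG01380 was at 7.89, 8.93 and 21.8 against 22.9, 17.2 and 6.95, and its groups overlapped (log2 difference -0.26, limma adjusted p = 0.826). The open reading frame ATMG00030 was at 3663, 7244 and 1299 against 275, 202 and 160, with a log2 difference of 3.97 (limma adjusted p = 0.00337) and no overlap.

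Complex I is the entry point of electrons from NADH into the respiratory chain, and in plants several of its subunit genes are split and joined by trans-splicing. Counts of complex I genes are of IDs. Those of NAD5 (ATMG00060, ATMG00513 and ATMG00665) and of NAD2 (ATMG00285 and ATMG01320) count apart, so they are not separate subunits. ATMG01275 is named NAD1A, and several complex I IDs carry no name here, so further IDs may be parts of the same subunit. Of 12 complex I genes tested in 2OX, 5 were called higher and the median log2 difference was 2.59. The NAD5 part ATMG00060 was at 55.3, 60.3 and 18.1 against 6.82, 5.17 and 1.74 (2.99, SE 0.67, limma adjusted p = 0.0256). The NAD2 part ATMG01320 was at 15.8, 17.9 and 4.25 in 2OX and at 0, 1.15 and 0 in Col, where it had 2 reads in all. The protein gene ATMG00510 was at 94.7, 69.2 and 41.5 against 10.54, 5.74 and 5.79 (3.03, limma adjusted p = 0.00887). In all of these the 2 groups did not overlap. The other protein genes called were ATMG00070 (2.53) and ATMG00650 (2.65).

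Mitochondrial ribosomal protein genes were 3 of 5 called higher in 2OX. RPS3 (ATMG00090), of the small subunit, was at 142, 364 and 136 against 36.6, 32.7 and 27.8 (2.54, SE 0.40, limma adjusted p = 0.00783). RPL16 (ATMG00080) and RPL2 (ATMG00560), of the large subunit, had log2 differences of 2.75 and 2.39 (limma adjusted p = 0.0126 and 0.0396). MATR (ATMG00520), the intron maturase, was at 189, 108 and 48.4 against 15.5, 11.5 and 17.4 (2.70, limma adjusted p = 0.0148). None of these 4 genes had overlapping groups. The remaining call was the open reading frame ATMG00660, at 86.8, 128 and 110 against 27.9, 30.4 and 19.1 (2.03, limma adjusted p = 0.00989).

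None of the tested genes for cytochrome c oxidase (complex IV, 3 genes), ATP synthase (complex V, 5 genes) and cytochrome c maturation (4 genes) was called in 2OX. Their median log2 differences were 1.53, 1.79 and 1.46. COX2, a core subunit of complex IV, had 1.68 (limma adjusted p = 0.117), ATP1, the alpha subunit of the ATP synthase, 2.33 (limma adjusted p = 0.117) and ATP4 2.24 (limma adjusted p = 0.144). The count of 13 depended on single libraries. By the headings of the line table it was 26 without 2OX replicate 1, the shallow library, 4 without 2OX replicate 2, 7 without Col replicate 1 and 8 without Col replicate 2. It was 3 in limma without a trend, 26 in edgeR and 30 in DESeq2. In a fit over 30 libraries with the nuclear rRNA share as a covariate, chosen after seeing the data, it was 0 and the median log2 difference of the members was 0.30. The line and that share cannot be told apart in these libraries, so the 0 is a description only.

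In 4OX, 2 of 70 members were called, both open reading frames and both higher, with 5.53% of 23295 genes called in all and 2.77% called higher. The members' median log2 difference was 0.55 and that of all genes -3.68e-05. ATMG00810 was at 11.2, 43.6 and 15.5 in 4OX and at 3.03, 0 and 0 in Col (3.71, SE 0.79, limma adjusted p = 0.032). ATMG00030 was at 1760, 955 and 613 against 448, 329 and 262 (1.58, SE 0.37, limma adjusted p = 0.04). Neither had overlapping groups.

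No protein gene or rRNA gene was called in 4OX. ATMG00020 was at 11264, 2983 and 1825 against 2298, 1961 and 1552, with 1 library far above the other 2 and overlap with Col (limma adjusted p = 0.28). ATP1 was at 22.4, 7.58 and 22.1 against 2.02, 7.48 and 0.946 (2.18, limma adjusted p = 0.0927), which are 22, 8 and 20 reads against 2, 8 and 1. With the nuclear rRNA share as a covariate 4 members were called in 4OX, namely ATMG00810, ATMG00030, ATMG00516 and ATP1, all higher. The count of 2 in the fit of the table fell to 0 without 4OX replicate 1 or without any 1 of the 3 Col libraries, and to 1 without 4OX replicate 3.

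In 6OX, 2 of 68 members were called higher, while 0.199% of 23170 genes were called in all and 0.138% higher. They were ATMG00020, at 14276, 12105 and 57727 against 2198, 1865 and 1471 (3.56, SE 0.48, limma adjusted p = 0.0291), and ATMG00030, at 2061, 1904 and 7573 against 428, 313 and 248 (3.26, SE 0.45, limma adjusted p = 0.0302). In both genes 6OX replicate 3 was far above the other 2 and the groups did not overlap. ATMG01390 had a log2 difference of 2.56 (limma adjusted p = 0.0654). Complex I genes had a median of 2.01 over 12 genes. Limma called 0 of them, and 7 had an unadjusted p under 0.05. The share of all genes under this p is not given here, so the 7 is not read as a result on complex I. The members' median was 0.89 and that of all genes -0.01. Both calls were lost without 6OX replicate 1 or any 1 Col library and with the nuclear rRNA covariate, and 4 members were called without 6OX replicate 2.

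In the sextuple line 0 of 61 members were called, with 1.53% of 23164 genes called in all. At an unadjusted p under 0.05 limma gave 2 members, and edgeR and DESeq2 called 0. The median was 0.22 over the members and -0.01 over all genes. ATMG00020 was at 1316, 2079 and 4885 against 2252, 1925 and 1517, with overlap (0.34, SE 0.37, limma adjusted p = 0.636). MATR was at 0, 12.7 and 17.6 against 24.8, 18.4 and 27.7 (-1.94, SE 0.94, limma adjusted p = 0.264), and COX1, the catalytic subunit of complex IV, at 15.0, 29.7 and 18.7 against 34.7, 31.2 and 35.1 (-0.70, SE 0.36, limma adjusted p = 0.29). In both genes the groups did not overlap, and neither passed the test. ATP1 was at 13.7, 8.48 and 12.1 against 1.98, 7.34 and 0.924 (1.75, SE 0.67, limma adjusted p = 0.163). Without sextuple replicate 3 there was 1 call. With the nuclear rRNA covariate limma called 0, and the members had a median of 0.14. In 4OX, 6OX and the sextuple line 15, 15 and 13 of the tested members passed the filter on low values only through 1 group, and none of these was called.

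**Figure D3:**
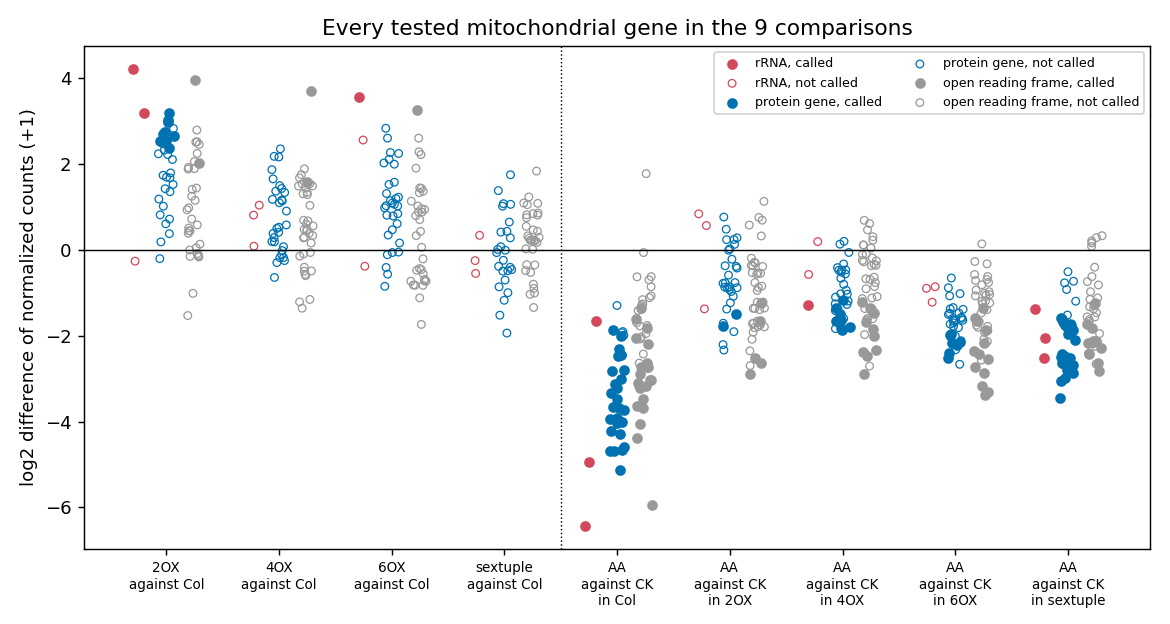
The log2 difference of every tested member is shown for the 4 line comparisons and the 5 AA comparisons, with colours for rRNA genes, protein genes and open reading frames, filled points for members called by limma and open points for the rest. Members lie above 0 in 2OX, with 58 of 68 above and a median of 1.60, and below 0 for AA in Col, with 77 of 78 below and a median of -2.72.

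To ask whether mitochondrial transcripts differ between seedlings headed AA and headed CK, the 2 groups were compared within each genotype. All calls were lower under the heading AA, and their sign rests on the headings of the AA tables. The 5 AA comparisons share no library with each other, though they share libraries with the line tables.

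In Col, genes of every role were among those called lower under the heading AA. Of 78 members tested 52 were called, all lower, against 18.2% of 22774 genes called in all and 7.81% called lower. The members' median log2 difference was -2.72 and that of all genes 0.02. All 3 rRNA genes, 27 of 32 protein genes and 22 of 43 open reading frames were called. By role these were 12 of 13 complex I genes (counted by ID, with parts of NAD5, NAD2 and possibly other genes apart), 2 of 3 of complex IV and 4 of 5 of complex V. Of the other roles, 4 of 4 for cytochrome c maturation, 1 of 2 for maturase and transport and 4 of 5 ribosomal protein genes were called. Of the 78 tested, 24 passed the filter on low values only through 1 group, 11 of them called. Without any 1 library there were 41 to 50 calls.

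ATMG00020 was at 1543, 1304 and 1022 normalized counts headed AA and at 142555, 48642 and 191260 headed CK, a log2 difference of -6.43 (SE 0.42, limma adjusted p = 1.11e-05). ATMG00030 was at 300.4, 219 and 173 against 19229, 6121 and 22852 (-5.94, limma adjusted p = 1.77e-05). ATMG01390 differed by -4.94 and ATMG01380 by -1.67 (limma adjusted p = 5.39e-05 and 0.0351). No rRNA gene had overlapping groups.

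Among protein genes, MATR was at 17.0, 12.4 and 18.7 against 312, 179 and 557 (-4.23, SE 0.40, limma adjusted p = 8.81e-05). RPS3 was at 40.0, 35.5 and 29.9 against 688, 297 and 969 (-4.02, limma adjusted p = 8.81e-05). COX1 was at 23.7, 21.1 and 23.7 against 348, 209 and 371 (-3.66, SE 0.28, limma adjusted p = 2.58e-05). In these 3 genes every library headed AA lay far below every library headed CK.

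Of the ATP synthase genes in Col, ATP1 differed by -3.68 (limma adjusted p = 0.00234), ATP4 by -3.47 (limma adjusted p = 0.00231) and ATP6-2, the gene of a membrane subunit, by -1.997 (limma adjusted p = 0.00572). ATP9, the gene of the ring subunit, was at 6.78, 1.24 and 6.85 against 8.99, 36.7 and 4.38, with overlap and no call (-1.30, limma adjusted p = 0.291). COX2 differed by -2.48 (limma adjusted p = 0.00298). COX3 had 0, 0 and 3 reads against 4, 2 and 9 and was not called (limma adjusted p = 0.0699). In the same comparison 95 of 112 plastid genes were called lower, and 2 members were still called with the nuclear rRNA share as a covariate, namely the protein gene ATMG00110 (-1.79, limma adjusted p = 0.0304) and the open reading frame ATMG00690 (-2.59, limma adjusted p = 0.0113).

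In the sextuple line 32 of 73 members were called, all lower, against 26% of 23113 genes in all and 13.4% lower. The members' median was -1.74. Of the 73 tested, 20 passed the filter on low values only through 1 group, 4 of them called. The calls held 3 of 3 rRNA genes, 19 of 32 protein genes and 10 of 38 open reading frames. COX1 was at 12.7, 25.0 and 15.7 headed AA and at 166, 144 and 138 headed CK (-3.04, SE 0.33, limma adjusted p = 0.000251). MATR was at 0, 10.7 and 14.8 against 128, 33.5 and 53.4 (-3.45, SE 0.98, limma adjusted p = 0.0268), and ATMG00020 at 1113, 1755 and 4112 against 8886, 12659 and 13467 (-2.52, SE 0.40, limma adjusted p = 0.00182). None of the 3 had overlapping groups. By role, 7 of 13 complex I genes, 2 of 3 of complex IV, 3 of 5 of complex V and 4 of 5 ribosomal protein genes were called. The count was 20 without the library headed CK replicate 2 and 21 without that headed AA replicate 2, and 12 with the nuclear rRNA covariate. The nuclear rRNA shares were 0.270% to 0.292% headed CK and 0.0372% to 0.113% headed AA. Heading and share cannot be told apart here, so the 12 is a description only. Here 37 of 105 plastid genes were called lower as well.

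In 4OX 20 of 78 members were called lower, against 25.7% of 23315 genes in all and 12.9% lower. Here the nuclear rRNA share was 1.11 times as large headed AA as headed CK, and the mitochondrial share 1.10 times. ATMG00020 was at 10572, 2764 and 1703 headed AA and 3111, 3052 and 3497 headed CK, with overlap (0.19, limma adjusted p = 0.813). Of the protein genes 8 of 31 (25.8%) were called, all lower. That share was near the 25.7% of all genes called and above the 12.9% called lower. ATP6-2 was at 33.5, 69.3 and 43.4 against 175, 175 and 156 (-1.83, SE 0.29, limma adjusted p = 0.00189).

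COX1 in 4OX was at 52.7, 53.5 and 27.9 against 138, 160 and 115 (-1.65, limma adjusted p = 0.00431) and RPS3 at 106, 55.3 and 29.97 against 150, 147 and 189 (-1.50, limma adjusted p = 0.0221). ATP9 was at 14.4, 29.8 and 11.4 against 57.3, 57.8 and 49.6 (-1.63, limma adjusted p = 0.0144) and ATP4 differed by -1.17 (limma adjusted p = 0.0194). None of these groups overlapped. The largest falls among called members whose groups did not overlap were the open reading frames ATMG01010, at 0, 1.76 and 0 against 8.02, 12.48 and 8.41 (-2.90), and ATMG00590 (-2.46, limma adjusted p = 0.0386). ATMG01010 is among 10 of the 78 tested, 2 of them called, that passed the filter on low values only through 1 group. COX2, MATR and ATP1 were not called and overlapped. With the nuclear rRNA covariate 13 members were called, 12 of them also called in the fit of the table. The count was 11 without the library headed CK replicate 1 or replicate 2 and 12 without that headed AA replicate 3.

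In 6OX 20 of 78 members were called lower, against 26.3% of 23022 genes in all and 13.7% lower. The members' median was -1.61. The rRNA genes held 0 of 3 calls, and ATMG00020 was at 11118, 9476 and 44567 headed AA and 59413, 10032 and 99347 headed CK (-1.22, SE 0.81, limma adjusted p = 0.297). ATP6-2 was at 38.6, 10.97 and 28.3 against 101, 105 and 126 (-2.21, limma adjusted p = 0.00447), COX2 at 5.62, 10.2 and 22.7 against 62.5, 37.8 and 63.1 (-2.16, limma adjusted p = 0.0109) and COX1 at 36.1, 49.4 and 87.8 against 263, 151 and 260 (-1.99, limma adjusted p = 0.00279). In these 3 genes the groups did not overlap. RPS3 was called with overlapping groups, at 69.1, 51.7 and 217 against 572, 186 and 650 (-2.14, limma adjusted p = 0.0189). The open reading frame ATMG01050 was at 0 in the 3 libraries headed AA and at 11.6, 11.4 and 6.31 headed CK, and ATMG01260 had 1 read headed AA and was at 6.95, 8.80 and 23.7 headed CK. Both are among 15 of the 78 tested, 6 of them called, that passed the filter on low values only through 1 group, so their direction is not given a test here. The count was 40 without the library headed CK replicate 2 and 33 without that headed AA replicate 3. It was 22 with the nuclear rRNA covariate, 19 of them called in both fits.

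In 2OX 7 of 76 members were called lower, against 25.1% of 22784 genes in all and 14.1% lower. The members' median was -0.88. No rRNA gene was called. ATMG00020 was at 24897, 46024 and 6297 headed AA and 58337, 3193 and 6719 headed CK, so 1 library headed CK was the highest and another the lowest (0.84, SE 0.98, limma adjusted p = 0.553). ATP9 was called, at 28.2, 8.72 and 10.8 against 45.5, 36.7 and 42.6 (-1.50, SE 0.51, limma adjusted p = 0.0474), and so was the protein gene ATMG00110, at 14.1, 28.1 and 23.0 against 86.0, 56.7 and 83.6 (-1.78, SE 0.40, limma adjusted p = 0.00735). Their groups did not overlap.

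In the shallow library of 2OX 1 read is worth about 7.05 normalized counts in this table, so its value of 14.1 for ATMG00110 is 2 reads and that of 28.2 for ATP9 is 4 reads. The other 5 calls were open reading frames, led by ATMG00620 at 0, 0 and 0.939 against 18.2, 4.98 and 5.76 (-2.88) and ATMG00280 (-2.63, limma adjusted p = 0.0324). Of the 76 tested, 9 passed the filter on low values only through 1 group, and ATMG00620 was the 1 called. The count was 3 without the library headed CK replicate 1 or replicate 2 and 2 without replicate 3 of that heading. With the nuclear rRNA covariate the count was 19, among them COX1 (-1.92, limma adjusted p = 0.00245) and RPS3 (-0.78, limma adjusted p = 0.0307). Of these, 6 were called in both fits. The share of all genes called in the covariate fit is not given here, so the change in the count is not read as particular to the members.

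Members differed in how regularly they were called across genotypes. Of the 90, 29 were called in no AA comparison, 17 in 1, 29 in 2, 7 in 3, 5 in 4 and 3 in all 5. Of all genes tested, 18.2% (Col) to 26.3% (6OX) were called in a comparison. How many of all genes recurred over the 5, or had no overlap in them, was not counted. These counts therefore describe the members only. The 3 called in all 5 were the protein gene ATMG00110 and the open reading frames ATMG00690 and ATMG01370, and none of them had overlapping groups in any of the 5. Those called in 4 were COX1, RPS3, ATP6-2 and the open reading frames ATMG00660 and ATMG01090. For ATMG00110 the Col difference was -2.31 and that of the sextuple line -2.51, with -1.78, -1.86 and -2.41 for 2OX, 4OX and 6OX. ATMG01370 had -1.35 and -1.25 and, for the 3 overexpression lines, -1.65, -1.38 and -1.58. Both thus varied by less than 1 log2 unit over the genotypes. ATMG00020 was called in 2 of the 5 and ran from -6.43 in Col to 0.84 in 2OX. With the nuclear rRNA covariate, ATMG00110 and ATMG00690 were called in all 5 and ATMG01370, ATMG00660, ATMG01090 and COX1 in 4.

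**Figure D4:**
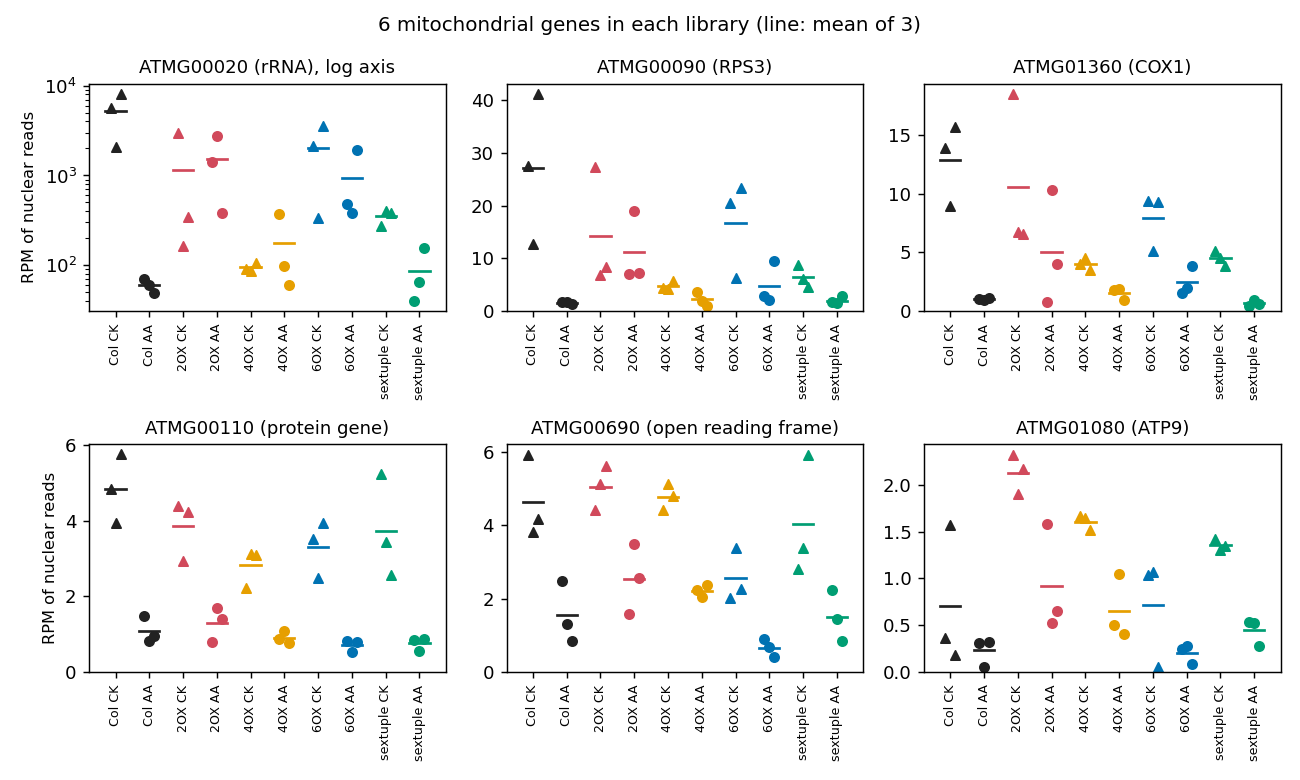
RPM of nuclear reads of 6 mitochondrial genes are shown for each of the 30 libraries, in 10 groups by the headings of the AA tables with a line at each mean of 3, with a log axis for the rRNA gene ATMG00020 alone. ATMG00020 spans 40.0 to 8103 and is highest in the Col libraries headed CK, while the libraries headed AA lie below those headed CK in every genotype for ATMG00110 and ATMG00690.

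Each member was also set against the nuclear rRNA share over the 30 libraries. For the 35 members with a median of at least 10 reads, the slope of log2 RPM of nuclear reads on the log2 nuclear rRNA share was computed as a description, since all points share library and depth. A slope of 1 means a level in proportion to that share and a slope of 0 a level unrelated to it. The highest slopes were 1.06 for ATMG00020, 0.90 for ATMG00030, 0.85 for MATR, 0.82 for ATMG01390 and 0.81 for ATMG00510. The lowest were -0.04 for ATP9, 0.08 for ATMG00690, 0.11 for ATMG00040 and ATMG01370, and 0.14 for the rRNA gene ATMG01380. The median slope was 0.58 over 19 protein genes and 0.27 over 13 open reading frames.

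Within a role the slopes were spread. NAD5 parts had 0.74 (ATMG00513), 0.73 (ATMG00060) and 0.34 (ATMG00665). Ribosomal protein genes had 0.66 for RPL16, 0.63 for RPS3 and 0.58 for RPL2. In complex IV COX1 had 0.53 and COX2 0.28, and in complex V ATP4 had 0.50, ATP1 0.32 and ATP6-2 0.18. Calls in the AA comparisons came at low and high slopes. ATMG00110 (0.26), COX1 and RPS3 were called in 4 or 5 of them, ATMG00020 and MATR in 2, and ATP9, of the lowest slope, was not called in Col. The slopes were computed on the same libraries as those calls.

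**Figure D5:**
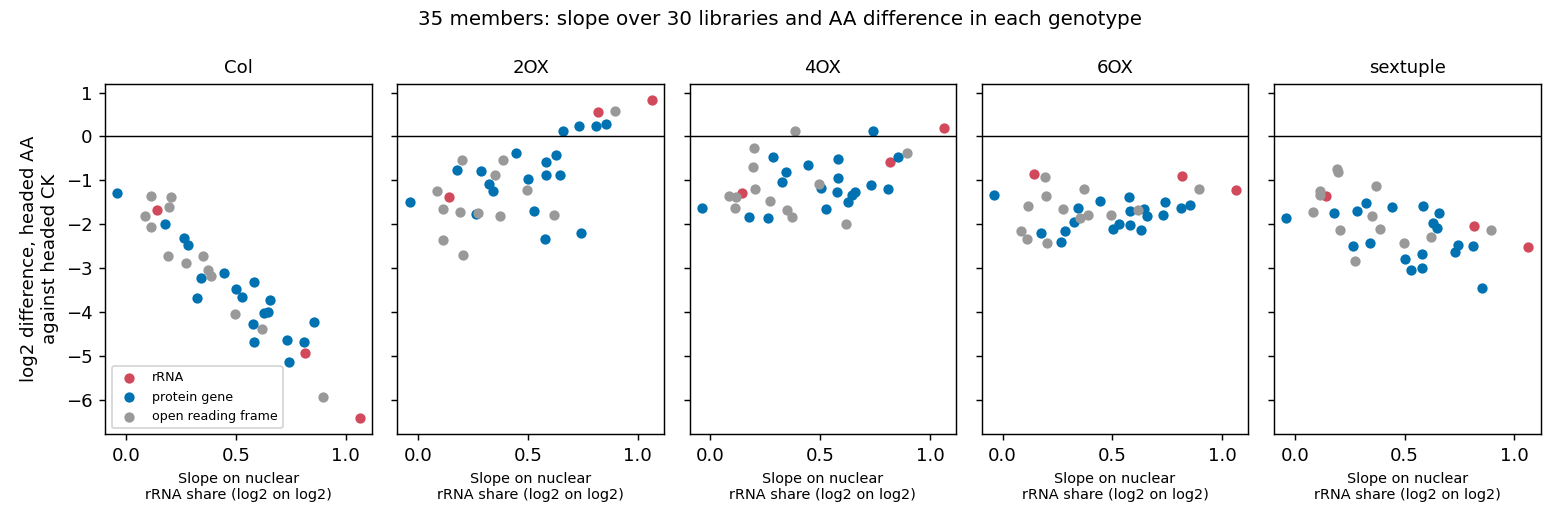
For 35 members, the log2 difference headed AA against headed CK is plotted for each genotype against the slope of the member on the nuclear rRNA share over 30 libraries, with colours for the class. In the Col panel differences run from -6.43 at the highest slope (1.06, ATMG00020) to between -2.06 and -1.30 at slopes of 0.11 or less, while in the 2OX panel the 5 members of slope 0.81 or more lie above 0.

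Line differences were also taken in the 15 libraries that stand in the AA tables only, headed CK there, in 1 fit. Here Col was the group with the most mitochondrial reads, and the members called were lower in the lines apart from 1. In 4OX 19 of 74 were called, all lower, against 7.11% of 22279 genes in all and 3.59% lower. In the sextuple line 15 were called, all lower, against 6.35% and 2.73%. In 2OX 5 were called lower and 1 higher, against 15.4%, with 6.82% lower and 8.53% higher. In 6OX limma called 0, against 3.5%, with 8 members at an unadjusted p under 0.05, while edgeR called 1 and DESeq2 3. These 4 comparisons share their Col libraries.

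Values of ATMG00020 show the order of these groups. Col was at 150418, 51364 and 199482 normalized counts, 4OX at 2275, 2204 and 2564 and the sextuple line at 7207, 10388 and 11078. All libraries of 4OX and of the sextuple line lay below all of Col (-5.62 and -3.62, limma adjusted p = 0.00128 and 0.0182). The NAD5 part ATMG00513 was at 3.35, 8.19 and 6.79 in 4OX against 86.9, 65.7 and 247 in Col (-4.06, limma adjusted p = 0.0037). The call higher in 2OX was the open reading frame ATMG00710, with 7, 4 and 8 reads against 0 in each of the 3 Col libraries, a gene with reads in only 1 of these groups. By role, complex I genes were called lower in 8 of 13 in 4OX, 6 of 13 in the sextuple line and 2 of 13 in 2OX. The counts rested on single libraries. In the sextuple line it was 1 without Col replicate 1 and 0 without Col replicate 3 or sextuple replicate 2. In 4OX it was 12 without Col replicate 1 or 3 and 10 without 4OX replicate 1 or 2. In 2OX the total of 6 was 10 without 2OX replicate 1, 1 without 2OX replicate 2 or Col replicate 1, 2 without Col replicate 3 and 0 without 2OX replicate 3. In 6OX 1 member was called without Col replicate 2, Col replicate 3 or 6OX replicate 3.

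For ATMG00020, 2OX was thus above Col in the libraries of the line table (4.22) and below Col by its mean in the other libraries (-3.10, limma adjusted p = 0.0183), where 1 of the 2OX libraries lay within the range of Col. The test of this difference is the interaction of line and heading, fitted over 30 libraries as the AA against CK difference of the line minus that of Col. At an adjusted p under 0.05, 16 of 74 members were called for 2OX, 15 with a higher and 1 with a lower difference than Col, against 5.58% of 22461 genes. For 4OX 3 were called, against 0.383%, for 6OX 1, against 0.592%, and for the sextuple line 0, against 1.11%.

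For 2OX the largest interactions were those of ATMG00020 (7.31 on the log2 scale, SE 1.27, limma adjusted p = 0.00183), ATMG00030 (6.56, limma adjusted p = 0.0015) and ATMG01390 (5.54, limma adjusted p = 0.00445). Among protein genes they were ATMG00580 (5.24, limma adjusted p = 0.0236), ATMG00510 (4.99, limma adjusted p = 0.0135) and the NAD5 part ATMG00060 (4.96, limma adjusted p = 0.00632). RPS3 had 3.64 (limma adjusted p = 0.00989) and MATR 4.55 (limma adjusted p = 0.036). The 1 lower member was the open reading frame ATMG00710, which had no reads in the Col libraries headed CK. For 4OX the calls were ATMG00020 (6.66, limma adjusted p = 0.0239), ATMG00030 (5.61, limma adjusted p = 0.0254) and ATMG00516 (4.24, limma adjusted p = 0.0494), and for 6OX ATMG00030 (4.77, limma adjusted p = 0.0432). For the sextuple line limma gave 13 members at an unadjusted p under 0.05, edgeR called 0 and DESeq2 3. With libraries named as in the AA tables, the count for 2OX was 9 without Col CK replicate 1, 7 without Col CK replicate 3, 10 without Col AA replicate 1, 7 without 2OX CK replicate 2, 2OX CK replicate 3 or 2OX AA replicate 2, and 22 without 2OX AA replicate 1, the shallow library. For 4OX it was 1 without Col CK replicate 1 or Col AA replicate 1 and 0 without Col CK replicate 3, Col AA replicate 2, 4OX CK replicate 1, 4OX CK replicate 2 or 4OX AA replicate 1. For 6OX it was 3 without 6OX CK replicate 3, 2 without 6OX AA replicate 2, 1 without Col AA replicate 3 and 0 without any of the other 9 libraries, and for the sextuple line 1 without Col AA replicate 1. All interactions use the same Col libraries, and with the nuclear rRNA covariate none of the 4 held a call. In those Col libraries the heading and the rRNA share cannot be told apart, so this loss of calls is a description only.

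The mitochondrial genes were also compared among themselves, after scaling each library by the median ratio over the mitochondrial protein genes. A call then means that a member departs from the protein genes of its own genome at this threshold. The adjustment runs over all genes of the table. Where most of them departed, an adjusted p lies close to the unadjusted one. The counts of such comparisons are thus barely corrected for the number of members tested. For AA in Col 19 members departed, 11 relatively higher and 8 relatively lower headed AA, while 95.2% of 23100 genes departed, as the scale is set by 22 mitochondrial genes. ATMG00020 had a relative difference of -2.65 (limma adjusted p = 3.03e-06), ATMG00030 -2.16 (limma adjusted p = 0.000176) and ATMG01390 -1.16 (limma adjusted p = 0.0437). Relatively higher were ATMG01370 (2.38, limma adjusted p = 5.92e-05), ATMG01380 (1.97, limma adjusted p = 0.0024), ATMG00690 (1.89, limma adjusted p = 0.00178), ATP6-2 (1.74, limma adjusted p = 0.00342), ATP9 (1.73, limma adjusted p = 0.0249) and ATMG00110 (1.40, limma adjusted p = 0.0223). The count was 11 without the library headed CK replicate 1 or replicate 3.

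In 2OX against Col 13 members departed from the protein genes, 2 relatively higher and 11 relatively lower, where 91.1% of all genes departed. ATMG00020 (1.78, limma adjusted p = 4.07e-06) and ATMG00030 (1.53, limma adjusted p = 9.28e-05) were relatively higher and ATMG01380 (-2.46, limma adjusted p = 0.000843) relatively lower. The count was 8 without Col replicate 3. In the sextuple line 10 departed for AA (87.1% of all genes), with COX1 (-1.07, limma adjusted p = 0.017) and MATR (-1.84, limma adjusted p = 0.00213) relatively lower, and this count was 5 without the library headed CK replicate 1 and 2 without replicate 2 of that heading.

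For AA in 4OX 6 departed (77.9% of all genes), with ATMG00020 relatively higher by 1.42 (limma adjusted p = 2.16e-08), ATMG00030 by 0.86 (limma adjusted p = 0.00079) and ATMG01390 by 0.66 (limma adjusted p = 0.00917). This count was 2 without the library headed CK replicate 2 or replicate 3. In 4OX against Col 4 departed (41.9%), a count of 2 without 4OX replicate 1, 1 without Col replicate 3 and 0 without Col replicate 2. In 6OX against Col 1 departed (1.95%), ATMG00020 (2.29, limma adjusted p = 0.0405), a count of 7 without 6OX replicate 2 or replicate 3 and 0 without 6OX replicate 1 or any 1 Col library. None did in the sextuple line against Col (0.475%) or for AA in 2OX (1.62%) and 6OX (18.4%), while single libraries left out gave 1, 3 and 6, without sextuple replicate 3, the library headed CK replicate 1 of 2OX and that headed AA replicate 3 of 6OX.

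Part of the mitochondrial genome is also present in the nucleus, as a large insertion on chromosome 2. In the RefSeq annotation (TAIR10.1) 55 pairs of a nuclear gene and a member were named as matching, for 53 members. Both genes of a pair had reads in 23 pairs, and the nuclear gene held more reads than the member in 11 of them. ATP1 (ATMG01190) had 562 reads over 30 libraries and its nuclear match AT2G07698 had 3508. RPL2 (ATMG00560) had 1127 and AT2G07715 had 4850. ATP9 (ATMG01080) had 753 and AT2G07671 had 709. How reads that fit both copies were assigned is not stated, so the values of these members are uncertain. For AA in Col both genes of a pair were tested in 15 pairs, 10 members and 7 nuclear genes were called, 5 pairs in both genes, and all 15 pairs had differences of the same sign. Of all genes, 18.2% were called in that comparison and 7.81% were called lower. Over the other comparisons, the least agreement in sign was 8 of 14 pairs, in 6OX against Col among the other libraries. For AA in the sextuple line it was 14 of 14, and for AA in 4OX 12 of 18.

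Nuclear genes for the same machinery were counted beside the members. Of 25 nuclear genes for subunits of the respiratory complexes, limma called 0 in each of the 9 comparisons, with 2 (AA in the sextuple line) to 13 (4OX and the sextuple line against Col) at an unadjusted p under 0.05 and medians between -0.06 for AA in Col and 0.24 in 2OX against Col. Of all genes tested, 0.199% (6OX) to 6.7% (2OX) were called against Col and 18.2% (Col) to 26.3% (6OX) in the AA comparisons. The other tools were not counted for this list. Of 20 nuclear genes for transcription, RNA processing and DNA maintenance in mitochondria, 8 were called higher in 2OX against Col and 5 in 4OX, with medians of 0.54 and 0.48. Of all genes, 3.26% and 2.77% were called higher there. In 6OX and the sextuple line limma called 0 of these 20 genes, with 8 and 5 at an unadjusted p under 0.05, and for AA 1 was called in all, higher in 2OX. These lists were chosen with earlier results known.

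Markers of leaf and root tissue moved with some of the same comparisons. All 4 leaf markers were called lower in 2OX against Col and 2 of 4 in 4OX. Of all genes tested, 6.7% and 5.53% were called in these 2 comparisons. In the AA tables root markers were called higher in 4 of 4 for Col and in 3 of 4 for each other genotype. All genes called there in either direction made up 18.2% in Col and 25.1% to 26.3% in the lines. In RPM of nuclear reads, the 4 root markers summed to 13.0 to 20.2 in the Col libraries headed CK and to 59.2 to 60.6 in those headed AA. The leaf markers summed to 3483 to 4605 and 3109 to 3397. In 2OX the root markers summed to 31.0 to 34.5 headed CK and 75.7 to 95.2 headed AA, and the leaf markers to 1856 to 2003 and 1578 to 2326. The part of these shifts in the mitochondrial results was not tested.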

How the data were processed

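RNA of whole seedlings was sequenced in 30 libraries. Per the labels and the study's methods, reads were mapped to TAIR10 with Bowtie 0.12.2, as named in the submitters' processing notes. The methods name Cufflinks for RPKM values, which these tables do not hold. The tool behind the deposited counts, its use of strand and the RNA selection are not given in the sources used here. The authors deposited 9 tables of normalized read counts per gene (a signal in units of reads divided by a size factor), of 23234 to 23612 genes with at least 5 reads over 6 libraries. Whole reads were recovered for 1266084 of 1266084 values (100%, tolerance 0.01). The authors' own fold changes and p-values in these tables were not used.

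Members and gene lists were chosen with earlier results of these data known. Genes were tested by limma 3.58.1 with trend (R 4.3.3) on log2 of the normalized count plus a pseudocount of 1, where a fold understates the change of low genes, for genes with a mean of at least 1 in the table. Calls needed a Benjamini-Hochberg adjusted p under 0.05 over all genes and a fold over 1.5, or the adjusted p alone for interactions. Equal libraries were counted once in fits over all libraries. edgeR 4.0.16 and DESeq2 1.42.0 on the recovered reads, another pseudocount, other filters, a stricter call, a replicate block, a joint fit of the 30 libraries and the omission of single libraries were alternatives. A covariate for the nuclear rRNA share was added after seeing the data. Shares of all genes called are given for the main fits only, so counts from the covariate fit, edgeR and DESeq2 stand without them. The fits were tested on simulated data. The exact permutation test planned for the shares is not reported, since the members were chosen with results known.

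Classes follow published locus names, and gene names are given only where an annotation pairs them with the ID. Named genes were rRNA genes, protein genes by role, and in each comparison the 2 largest rises and falls among called members whose groups did not overlap. The open reading frames ATMG00030, ATMG00690, ATMG01370, ATMG00660 and ATMG01090 were in part named after their values were seen. Where members overlap other genes or have near-identical copies, their counts are uncertain. Intervals of counting error are not given for single genes, and groups are compared by the spread of 3 libraries.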

Additional observations from a re-analysis of the deposited data

Results flagged for a closer look

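The difference between libraries headed AA and headed CK was compared between each line and Col. By limma's interaction test, 16 of 74 mitochondrial genes differed between 2OX and Col at an adjusted p under 0.05, 3 between 4OX and Col 1 between 6OX and Col and 0 between the sextuple line and Col, where limma gave 13 at an unadjusted p under 0.05, edgeR called 0 and DESeq2 3. For 2OX, 15 of the 16 had a less negative or more positive difference than in Col, led by the rRNA gene ATMG00020 with an interaction of 7.31 on the log2 scale. The sign of each depends on the headings of the AA tables. All of them use the same 6 Col libraries, whose nuclear rRNA shares were 1.54% to 6.64% headed CK and 0.0543% to 0.0692% headed AA. With that share as a covariate, no interaction of a member was called, and its part in the result was not tested further.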

How the results depend on the processing

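Counts below are of members called, where 2OX, 4OX, 6OX and sextuple stand for the line against Col in the line tables. The shares of all genes called under these alternatives are not given, so a changed count need not be particular to the members. DESeq2 called 30 in 2OX, 5 in 4OX, 8 in 6OX and 31 for AA in 6OX, 2 in 2OX and 3 in 6OX among the other libraries, and 27, 12, 5 and 3 in the interactions of 2OX, 4OX, 6OX and sextuple. edgeR called 26 in 2OX, 1 in 2OX and 1 in 6OX among the other libraries and 2 in the interaction of 6OX. With the adjusted p below 0.01 and folds above 2, calls were 6 in 2OX, 0 in 4OX and 0 in 6OX, 2, 8, 12 and 13 for AA in 2OX, 4OX, 6OX and sextuple, 0, 8 and 0 in 2OX, 4OX and sextuple among the other libraries, 5, 0 and 0 in the interactions of 2OX, 4OX and 6OX, and, relative to the mitochondrial protein genes, 7, 1 and 0 in 2OX, 4OX and 6OX and 10, 1 and 2 for AA in Col, 4OX and sextuple. limma without a trend gave 3, 0 and 0 in 2OX, 4OX and 6OX, 1 each in 2OX, 6OX and sextuple among the other libraries, 0 in the interactions of 4OX and 6OX, and relative counts of 23, 7 and 6 in 2OX, 4OX and 6OX and 1, 11, 3 and 17 for AA in 2OX, 4OX, 6OX and sextuple. A mean of at least 10 gave 4 for AA in 2OX and relative counts of 8 in 2OX, 3 in 6OX, 12 for AA in Col and 4 for AA in sextuple. No filter gave a relative count of 1 for AA in 6OX, and a pseudocount of 5 gave 4 in 6OX relative to the protein genes and 1 in 6OX among the other libraries. One fit over 30 libraries gave 20 in 2OX and 12 for AA in 2OX and in 4OX. With the nuclear rRNA covariate, calls were 0, 4 and 0 in 2OX, 4OX and 6OX, 2, 19, 13 and 12 for AA in Col, 2OX, 4OX and sextuple, and 0 in the interactions of 2OX, 4OX and 6OX. Without rRNA reads the ratio of mean shares was 5.11 in 6OX and, headed AA over headed CK, 0.0386 in Col, 0.940 in 2OX and 0.694 in 4OX, the last 2 reversed. The cause of these changes was not tested.

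Leaving out 1 library at a time gave 4 to 26 calls in 2OX, 0 to 2 in 4OX, 0 to 4 in 6OX and 0 to 1 in sextuple, 41 to 50, 2 to 9, 11 to 22, 14 to 40 and 20 to 31 for AA, in the order Col, 2OX, 4OX, 6OX and sextuple, 0 to 10, 10 to 17, 0 to 1 and 0 to 14 in the 4 lines among the other libraries, and 7 to 22, 0 to 4, 0 to 3 and 0 to 1 in the interactions. Relative counts were 8 to 17, 0 to 5, 0 to 7 and 0 to 1 in the lines and 11 to 20, 0 to 3, 2 to 9, 0 to 6 and 2 to 9 for AA. Ratios of shares were 9.67 to 21.7, 1.49 to 2.98, 4.87 to 13.1 and 0.828 to 1.45 in the lines and 0.0153 to 0.0265, 0.694 to 4.61, 0.682 to 1.36, 0.238 to 0.773 and 0.192 to 0.336 for AA. Same-numbered replicates were not shown to be pairs, as in 0 of 9 comparisons did every pair's deviations correlate above 0.1. With the replicate block calls were 4 in 4OX, 4 for AA in 2OX and 39 for AA in 6OX, 1 in 6OX among the other libraries, and relative counts of 0 in 6OX and 5 each for AA in 6OX and sextuple, and in 2OX the block gave 14. Over the alternatives other than single libraries left out, 201 values kept their direction and side of the threshold or stayed within 1.5 times. Of the rest, 51 moved further, 17 lost and 10 gained calls or significance, and 2 were reversed. Single libraries left out also took the ratio of shares below 1 in sextuple (0.828) and for AA in 2OX (0.694) and 4OX (0.682). Protein genes with a few reads per library, and the shallow 2OX library, limit what can be shown for single genes.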
